A study of Homo sapiens with 2 samples.

Results

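The genes described here are 9 of the 33538 gene identifiers counted in SH-SY5Y cells, those for catecholamine synthesis, transport and breakdown. They were chosen by function, as TH, DDC, DBH and GCH1 for synthesis, SLC18A1 and SLC18A2 for loading of vesicles, SLC6A2 and SLC6A3 for uptake from outside the cell, and MAOA for breakdown. SY5Y, short for SH-SY5Y, is a neuroblastoma line of human origin. A single culture was divided into 2 flasks, SplitA and SplitB, both untreated and not synchronized, each of which received its own hashtag antibody before all cells were pooled and sequenced as 1 library. Cells were assigned to a flask when 1 hashtag was at least 3 times the other and the other stayed under the limit of the study's supplementary code, and only cells with at least 1000 detected genes were kept, which left 899 cells of SplitA and 1195 cells of SplitB. SplitA and SplitB are replicates 1 and 2 of the same condition, so their spread is that of sister flasks of a single culture, and cells of a flask are not replicates.

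Catecholamines are made from tyrosine. Tyrosine hydroxylase (TH), the rate-limiting enzyme, gives L-DOPA, DOPA decarboxylase (DDC) turns it into dopamine, and dopamine beta-hydroxylase (DBH) turns dopamine into noradrenaline inside the vesicle. TH needs tetrahydrobiopterin, a cofactor whose first synthetic step is run by GTP cyclohydrolase (GCH1). SLC18A1 and SLC18A2 are the vesicular monoamine transporters VMAT1 and VMAT2, SLC6A2 and SLC6A3 take up noradrenaline and dopamine from outside the cell, and monoamine oxidase A (MAOA) breaks the amines down. Neuroblastoma arises from the sympathoadrenal lineage, in which these enzymes are usually expressed, and SY5Y is widely used as a model of catecholamine neurons.

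The kept cells held 5852780 UMIs in SplitA (median of 6063 per cell) and 8066440 in SplitB (median of 6346). A UMI is a tag on a single captured transcript, counted at its 3' end, and levels are given as CPM, the UMIs of a gene per 1000000 UMIs of all kept cells of a flask. Intervals in parentheses are 95% intervals, exact Poisson for CPM and exact binomial (Clopper-Pearson) for shares of cells, and they cover counting error only. Of the 8 adrenergic neuroblastoma markers on a fixed list, 7 were detected in 10% or more of the cells in both flasks. Of 8 mesenchymal markers 2 were, and 29.0% of the 17881 genes with a UMI. These 2 were TWIST1, in 59.1% of SplitA and 58.1% of SplitB cells, and VIM, in 36.5% and 40.8%. No cell type that should lack these genes was in the culture, so the level given by free RNA could not be read. For comparison, 10 genes of other tissues were read, which these cells should not release as free RNA. They therefore give no free RNA level for the members. Of these 10 genes, 8 had no UMI and the highest (SFTPC, a lung surfactant protein) reached 0.513 CPM in SplitA and 0.496 CPM in SplitB.

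Start-site sequences were at hand for 4 of the 9 genes, in 5 windows of 250 bases before to 50 after the start (RefSeq, GRCh38.p14). The windows of DBH and DDC are shown because these were the most abundant of the 9 transcripts and moved together over the cell cycle, and that of SLC18A2 because it was hardly detected beside its paralogue SLC18A1. Each window is given 5' to 3' on the strand of the gene, with capitals for the cyclic AMP response element half-site TGACG or its reverse complement CGTCA, for the full element TGACGTCA, and for the homeodomain core TAATT or its reverse complement AATTA.
DBH, chr9:133636113-133636412, plus strand: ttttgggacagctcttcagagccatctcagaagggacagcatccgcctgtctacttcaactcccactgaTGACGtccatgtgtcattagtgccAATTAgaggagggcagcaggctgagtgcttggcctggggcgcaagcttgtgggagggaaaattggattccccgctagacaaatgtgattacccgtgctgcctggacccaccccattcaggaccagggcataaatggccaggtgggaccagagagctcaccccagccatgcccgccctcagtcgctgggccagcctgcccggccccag
DDC, upstream start site, chr7:50565356-50565655, minus strand: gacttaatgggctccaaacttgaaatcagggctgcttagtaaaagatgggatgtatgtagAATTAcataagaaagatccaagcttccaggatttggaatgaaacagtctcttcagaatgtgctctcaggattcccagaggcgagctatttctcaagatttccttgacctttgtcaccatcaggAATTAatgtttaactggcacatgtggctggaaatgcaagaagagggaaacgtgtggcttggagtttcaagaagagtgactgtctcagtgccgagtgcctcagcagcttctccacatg
DDC, downstream start site, chr7:50561022-50561321, minus strand: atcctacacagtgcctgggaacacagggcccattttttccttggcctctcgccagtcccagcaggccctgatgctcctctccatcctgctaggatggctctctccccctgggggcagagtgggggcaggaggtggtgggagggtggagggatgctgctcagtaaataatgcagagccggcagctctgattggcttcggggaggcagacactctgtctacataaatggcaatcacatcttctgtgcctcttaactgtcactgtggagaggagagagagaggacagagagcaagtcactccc
SLC18A2, chr10:117240864-117241163, plus strand: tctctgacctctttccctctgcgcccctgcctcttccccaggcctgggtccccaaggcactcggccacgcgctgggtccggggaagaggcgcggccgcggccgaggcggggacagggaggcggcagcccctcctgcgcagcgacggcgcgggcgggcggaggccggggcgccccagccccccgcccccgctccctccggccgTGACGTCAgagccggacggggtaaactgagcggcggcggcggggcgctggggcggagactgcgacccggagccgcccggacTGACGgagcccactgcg
The DBH window held TGACG from position -181 and AATTA from position -157, counted from the start site. The upstream DDC window held AATTA from positions -190 and -67, and none of the 3 motifs was found in the downstream window. The SLC18A2 window held the full element from position -48, which contains the half-site on both strands, and a further TGACG from position 33. Of the 5 windows at hand, 2 held the half-site, 1 the full element and 2 the homeodomain core. The window that is not shown held none of the 3 motifs. Over 35116 promoter windows of the same length, 24.6% held the half-site, 1.85% the full element and 24.8% the homeodomain core on either strand. A match of letters is a description of the window and was not tested as a binding site.

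The last steps of noradrenaline synthesis were well covered by transcripts, while the first step was close to the limit of detection. DBH was found at 335 CPM in SplitA (321-350) and 325 CPM in SplitB (312-337), and DDC at 97.6 CPM (89.7-106) and 110 CPM (103-118). TH, in contrast, was found with 9 UMIs in each flask, which is 1.54 CPM in SplitA (0.703-2.92) and 1.12 CPM in SplitB (0.51-2.12). Therefore, DBH UMIs outnumbered those of TH by 218 times in SplitA (115-477) and 291 times in SplitB (153-637), and DDC UMIs outnumbered those of TH by 63.4 times and 98.9 times. TH stood above the highest of the 10 genes of other tissues in both flasks, but its interval overlapped that of SFTPC (0.106-1.5 CPM in SplitA, 0.135-1.27 CPM in SplitB). PNMT, which turns noradrenaline into adrenaline, was at 9.91 CPM (7.52-12.8) and 8.31 CPM (6.44-10.5). DBH (ENSG00000123454) lies at chr9:133636363-133659329 on the plus strand, DDC (ENSG00000132437) at chr7:50458436-50565405 on the minus strand and TH (ENSG00000180176) at chr11:2163929-2171815 on the minus strand of GRCh38, as annotated by GENCODE release 44. The exons of DBH and DDC overlap those of an antisense gene each, of which DBH-AS1 had 2 UMIs in each flask and DDC-AS1 had 0, and the use of strand in the counting is not given in the sources used here.

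GCH1 (ENSG00000131979, chr14:54842008-54902826, minus strand) was found at 32.8 CPM in SplitA (28.3-37.8) and 35.6 CPM in SplitB (31.6-39.9). The enzymes next to it in the cofactor pathway were present too. PCBD1, which recycles the cofactor, was at 348 CPM in SplitA and 350 CPM in SplitB, QDPR, the dihydropteridine reductase of the same recycling, at 117 CPM and 115 CPM, and PTS, the second synthetic enzyme, at 74.7 CPM and 70.5 CPM. DNAJC12, a co-chaperone of the aromatic amino acid hydroxylases, was at 29.6 CPM and 28.5 CPM. Thus, transcripts for making and recycling the cofactor of TH were more frequent than those of TH itself in both flasks. SLC3A2, a subunit of the carrier that brings tyrosine into the cell, was at 17.9 CPM and 20.7 CPM.

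Of the vesicular transporters, VMAT1 was the one detected. SLC18A1 (ENSG00000036565) was at 41.3 CPM in SplitA (36.3-46.9) and 43.6 CPM in SplitB (39.2-48.4), while SLC18A2 (ENSG00000165646, chr10:117241093-117279430, plus strand) had 7 UMIs in SplitA and 8 in SplitB, or 1.20 CPM (0.481-2.46) and 0.992 CPM (0.428-1.95). SLC18A1 UMIs were 34.6 times those of SLC18A2 in SplitA (16.5-86.9) and 44 times in SplitB (22.1-103). SLC18A3, the vesicular acetylcholine transporter, was at a level like that of SLC18A1, with 45.1 CPM (39.8-50.9) and 42.4 CPM (38-47.1), while CHAT, which makes acetylcholine, had no UMI in SplitA and 1 in SplitB. CYB561, the vesicle membrane cytochrome that supplies DBH with electrons, was at 233 CPM and 217 CPM.

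Of the plasma membrane transporters, the one for noradrenaline was detected. SLC6A2 (ENSG00000103546, chr16:55655988-55707645, plus strand) was at 45.8 CPM in SplitA (40.5-51.6) and 44.5 CPM in SplitB (40.0-49.4), whereas SLC6A3 (ENSG00000142319, chr5:1392794-1445440, minus strand) had 1 UMI in SplitA and 4 in SplitB, no more than SFTPC. SLC29A4, a low-affinity monoamine transporter, was at 52.6 CPM and 49.3 CPM.

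Breakdown enzymes were uneven. MAOA (ENSG00000189221, chrX:43654907-43746817, plus strand) had 29 UMIs in SplitA and 40 in SplitB, which is 4.95 CPM (3.32-7.12) and 4.96 CPM (3.54-6.75), and its paralogue MAOB had 1 and 2 UMIs. The aldehyde reductases AKR1B1 (168 CPM and 154 CPM) and AKR1A1 (60.3 CPM and 61.6 CPM) and the aldehyde dehydrogenase ALDH2 (22.2 CPM and 23.6 CPM) were detected as well.

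**Figure D1:**
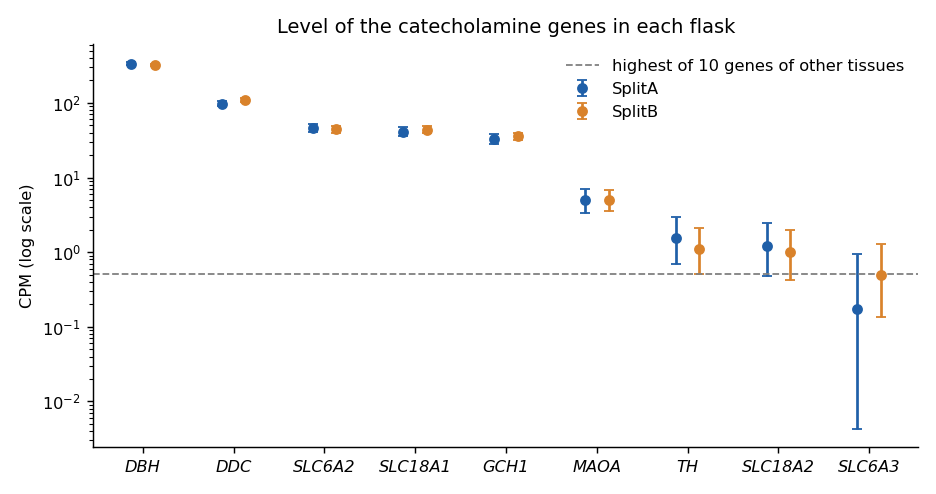
CPM (log scale) of the 9 catecholamine genes in SplitA and SplitB, with exact Poisson 95% intervals. The dashed line marks the highest of 10 genes of other tissues, at 0.513 CPM. DBH and DDC stand highest in both flasks, TH and SLC18A2 lie near 1 CPM and SLC6A3 lies at or under the line.

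The order of the CPM levels was the same in both flasks, from DBH and DDC over SLC6A2, SLC18A1, GCH1 and MAOA to TH, SLC18A2 and SLC6A3. Neighbours in this order whose intervals overlapped in both flasks were SLC6A2 and SLC18A1, SLC18A1 and GCH1, TH and SLC18A2, and SLC18A2 and SLC6A3. As a mean of the flasks, DBH was at 330 ± 7.37 CPM (SD, n = 2), DDC at 104 ± 9.03 CPM, SLC6A2 at 45.1 ± 0.909 CPM, SLC18A1 at 42.5 ± 1.62 CPM, GCH1 at 34.2 ± 1.96 CPM and TH at 1.33 ± 0.298 CPM. CPM counts transcripts by their 3' ends and is not a level per length. Per kilobase of the longest annotated transcript, DBH and DDC kept their places, while SLC6A2 came after SLC18A1 and GCH1, and TH passed MAOA in SplitA only.

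Between the flasks, none of the 5 genes detected in 10% or more of the cells differed by a log2 ratio of CPM of 0.25 or more, a size reached by 9.38% of 5626 genes. The largest log2 ratio, SplitA minus SplitB, was -0.18 for DDC, followed by -0.12 for GCH1, -0.08 for SLC18A1, 0.05 for DBH and 0.04 for SLC6A2. With 1 flask against 1 flask no test was made.

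Of the 9 genes, 5 were detected in 10% or more of the cells in both flasks (DBH, DDC, SLC6A2, SLC18A1 and GCH1), against 29.0% of the 17881 genes with a UMI. DBH was seen in 74.2% of SplitA cells (71.2-77.0) and 73.2% of SplitB cells (70.6-75.7). DDC was seen in 32.8% (29.7-36.0) and 32.1% (29.5-34.9), SLC6A2 in 23.1% and 23.2%, SLC18A1 in 19.0% and 21.8%, and GCH1 in 17.9% and 20.4%. MAOA was seen in 3.23% and 3.26% of cells, TH in 1.00% (0.459-1.89) and 0.753% (0.345-1.42), SLC18A2 in 0.667% and 0.586%, and SLC6A3 in 0.111% and 0.335%. These shares depend on depth. With every cell thinned at random to 2000 UMIs, DBH was left in 43.2% and 41.5% of cells and DDC in 13.8% and 12.9%, and the other members were under 10%, with 7.13% and 8.55% for SLC6A2, 7.57% and 7.46% for SLC18A1, and 6.79% and 6.96% for GCH1.

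**Figure D2:**
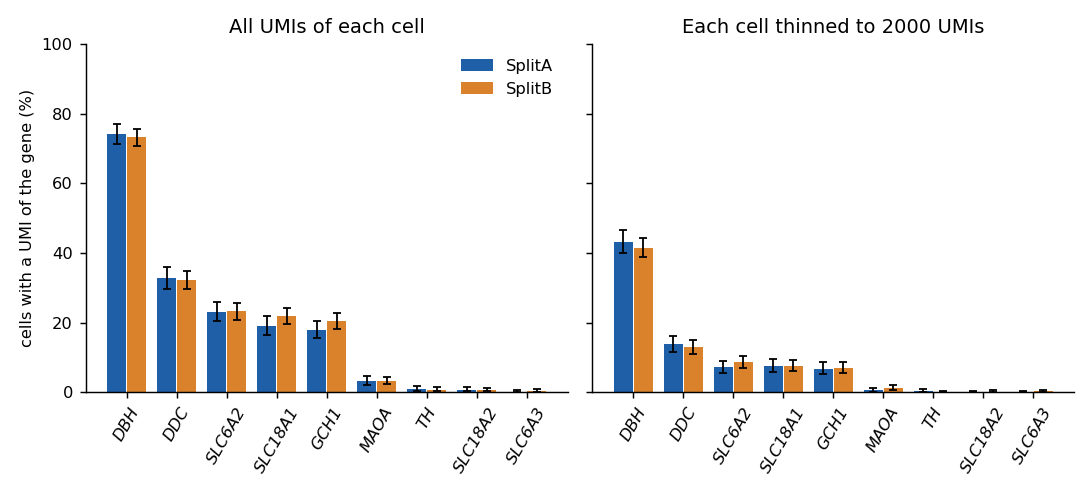
Share of cells with at least 1 UMI of each gene in SplitA and SplitB, from all UMIs of each cell (left) and with each cell thinned to 2000 UMIs (right), with exact binomial 95% intervals. DBH and DDC stand highest in both panels, and thinning lowers DBH from 74.2% to 43.2% in SplitA.

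By their Fano factors, DDC and DBH varied most among the 5 detected members. They were also the most abundant, and the Fano factor can rise with the level of a gene. The most DDC UMIs in a cell were 15 in SplitA and 25 in SplitB, with 20 and 49 cells at 5 UMIs or more, although most cells had none. The 10% of cells richest in DDC held 60.4% of its UMIs in SplitA and 65.5% in SplitB. For SLC18A1 it was 66.5% and 60.2%, for GCH1 63.0% and 56.8%, for SLC6A2 56.0% and 56.3% and for DBH 36.8% and 40.2%, shares that also depend on the level of the gene. The Fano factor, the variance over cells divided by the mean in thinned counts and close to 1 where counting noise alone is at work, was 1.39 and 1.35 for DDC and 1.33 and 1.45 for DBH, against a median of 1.02 over 5191 genes in both flasks and a 90th percentile of 1.14 in both. GCH1 (0.994 and 0.999) and SLC6A2 (0.959 and 0.970) had Fano factors near 1, and SLC18A1 had 1.16 in SplitA and 0.989 in SplitB. No member passed 1.5 in both flasks, a value passed by 2.2% of the 5191 genes, which were not matched to the members by level.

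TH was never seen with more than 1 UMI in a cell. The 18 cells with a TH UMI had a median depth of 8976 UMIs, against 6243 for the other cells. By flask it was 7295 against 6059.5 UMIs in SplitA and 12713 against 6331.5 UMIs in SplitB. Of these 18 cells 12 were assigned to G1, a phase that held 41.7% of all cells. They were 5 of 9 in SplitA and 7 of 9 in SplitB, too few to be read as a difference from all cells. A DBH UMI was also present in 7 of 9 TH cells of SplitA and 9 of 9 of SplitB, and a DDC UMI in 6 of 9 and 8 of 9. Cells with a UMI of all 3 enzymes were 6 in SplitA, or 0.667% of cells (0.245-1.45), and 8 in SplitB, or 0.669% (0.289-1.31). DDC and DBH without regard to TH were seen together in 26.8% of the cells of each flask. After thinning, a TH UMI was left in 2 cells of SplitA and 1 of SplitB, so co-detection with TH could not be read at equal depth. Cells with a UMI of both TH and DBH were then 0.0419% as a mean of the flasks (SD of 0.0593, n = 2), 0 of 898 in SplitA, which allows a share of up to 0.334% if a count of 0 is taken to allow 3 counts (exact binomial upper limit of 0.410%), and 1 of 1193 in SplitB.

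Co-detection of the 5 detected members was therefore compared at 2000 UMIs per cell. DDC was found in 19.3% of the SplitA cells with a DBH UMI (15.5-23.6) and in 9.61% of those without (7.19-12.5), and in SplitB in 17.8% (14.5-21.4) and 9.46% (7.39-11.9). Read the other way, DBH was in 60.5% of the SplitA cells with a DDC UMI (51.3-69.1) and 40.4% of those without (37.0-44), and in 57.1% (48.9-65.1) and 39.2% (36.2-42.2) in SplitB. DDC was also found more often beside SLC18A1, in 26.5% of the SplitA cells with an SLC18A1 UMI (16.5-38.6) and 12.8% of those without (10.6-15.2), and in 22.5% (14.3-32.6) and 12.1% (10.3-14.2) in SplitB. Read from DDC, SLC18A1 was in 14.5% (8.84-22.0) and 6.46% (4.83-8.43) in SplitA and in 13% (8.12-19.3) and 6.64% (5.20-8.33) in SplitB, where the intervals overlapped. Of the 10 pairs, these 2 had intervals apart in both flasks in at least 1 direction. SLC18A1 was found in 9.28% of SplitA cells with a DBH UMI and 6.27% of those without, and in 10.5% and 5.30% in SplitB, with intervals apart in SplitB only. In all, the second gene was more frequent beside the first in both flasks for 7 pairs, less frequent in both for 1 (GCH1 by DDC) and mixed for the other 2, both of them pairs of GCH1. Neither these counts nor that of the 2 pairs with intervals apart has a background share from pairs of other genes beside it. They are a description only. Correlations of single cells were weak, with no absolute Pearson r between members above 0.094, and in counts this sparse they are no finding.

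The pair of DBH and DDC was also read within cell-cycle phases, a split made after the first values had been seen, because both genes moved with the phase. Among G1 cells, DDC was in 25.8% of those with a DBH UMI (19.6-32.8) and 14.4% of those without (9.74-20.3) in SplitA, and in 23.2% (18.0-29.0) and 12.0% (8.31-16.6) in SplitB. The G1 intervals overlapped in SplitA and were apart in SplitB. Within S and G2M the share was higher beside DBH in both flasks too, with overlapping intervals. DDC and SLC18A1, which also moved with the phase, were split the same way, read from DDC. Among G1 cells, SLC18A1 was in 18.9% of those with a DDC UMI (10.7-29.7) and 8.47% without (5.56-12.3) in SplitA. In SplitB it was in 15.9% (8.98-25.2) and 9.62% (6.96-12.9). Intervals overlapped in every phase of both flasks. The share was higher beside DDC except in G2M of SplitA (4.17%, 1 of 24 cells, against 6.09%). The direction read from SLC18A1 was not split.

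**Figure D3:**
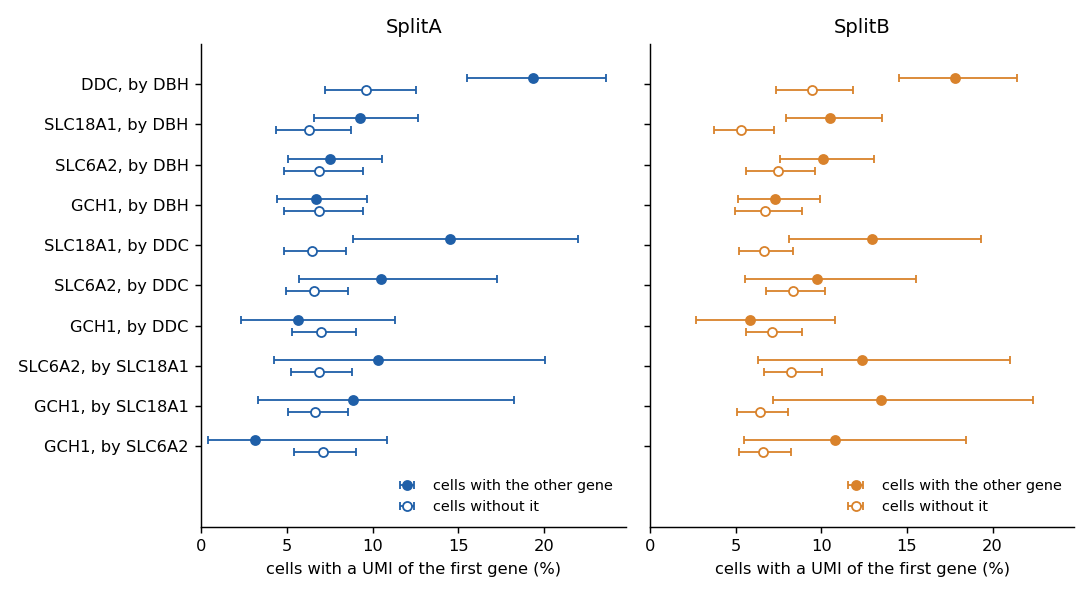
Share of cells with a UMI of the first gene among cells with (filled) and without (open) a UMI of the other gene, for 10 pairs of the 5 detected genes at 2000 UMIs per cell, with exact binomial 95% intervals. As drawn, DDC by DBH has intervals apart in both flasks, at 19.3% and 9.61% in SplitA, and SLC18A1 by DDC has them apart in SplitA.

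Without thinning, 12.8% of SplitA cells and 13.7% of SplitB cells showed none of the 5 detected members, and all 5 were seen together in 1.56% and 2.01%. The most frequent number was 1 of 5, in 37.9% and 35.6% of cells.

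The members were next compared between cell-cycle phases, which were read from marker transcripts that include none of the 9 genes. G1, S and G2M held 369, 276 and 254 cells of SplitA and 505, 348 and 342 cells of SplitB. DDC, DBH, SLC18A1 and GCH1 were lower in S and in G2M than in G1 in both flasks. DDC went from 149 CPM in G1 to 61.7 CPM in S and 65.1 CPM in G2M in SplitA, and from 171 to 74.4 and 59.6 CPM in SplitB. DBH went from 425 to 299 and 256 CPM in SplitA and from 407 to 314 and 221 CPM in SplitB. SLC18A1 went from 63.3 to 26.9 and 26.9 CPM in SplitA and from 59.9 to 37.0 and 27.4 CPM in SplitB. GCH1 went from 40.0 to 28.7 and 27.4 CPM in SplitA and from 43.6 to 31.2 and 28.6 CPM in SplitB. The intervals of GCH1 overlapped between G1 and S in both flasks, at 32.3-49.0 and 21.2-38.1 CPM in SplitA and 36.8-51.2 and 24.3-39.4 CPM in SplitB. Between G1 and G2M the GCH1 intervals overlapped in SplitA (20.4-36.1 CPM in G2M) and were apart in SplitB (22.3-36.1 CPM in G2M). Those of DDC, DBH and SLC18A1 in G1 were apart from S and G2M in both flasks. The share of all genes with such a pattern is not given here.

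UMIs summed per flask and phase were tested by edgeR's quasi-likelihood test with the flask as a block and Benjamini-Hochberg adjustment over 10521 genes. Of the 6 members that could be tested, 4 were lower in S than in G1, against 9.42% of all genes tested. The log2 fold change was -1.32 (SE 0.10, adjusted p = 2.13e-18) for DDC, -0.99 (SE 0.15, adjusted p = 1.26e-07) for SLC18A1, -0.57 (SE 0.16, adjusted p = 0.00601) for GCH1 and -0.52 (SE 0.058, adjusted p = 1.39e-11) for DBH. In G2M all 6 were lower than in G1, against 15.1% of all genes tested, with -1.50 (adjusted p = 1.29e-21) for DDC, -1.29 (adjusted p = 4.40e-11) for SLC18A1, -0.93 (adjusted p = 1.64e-22) for DBH and -0.70 (adjusted p = 0.000289) for GCH1. The median log2 fold change of the 6 was -0.54 in S and -1.11 in G2M, beside -0.0013 and 0.032 for all genes tested. TH, SLC18A2 and SLC6A3 had too few UMIs for the test.

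The calls for SLC6A2 and MAOA rest mainly on SplitA. SLC6A2 had 59.8, 36.5 and 36.6 CPM in G1, S and G2M of SplitA but 43.9, 46.3 and 43.7 CPM in SplitB, so that its log2 fold change of -0.44 in G2M (adjusted p = 0.0198) was -0.84 in SplitA and -0.12 in SplitB. In S its log2 fold change was -0.35 (adjusted p = 0.10). MAOA had 20, 9 and 0 UMIs in G1, S and G2M of SplitA and 18, 12 and 10 in SplitB, where its log2 fold change in G2M was -0.50, so that the fitted value of -1.63 (adjusted p = 0.0132) depends on the count of 0. In S, MAOA was at -0.41 (adjusted p = 0.60). With DESeq2 the calls were DDC, DBH and SLC18A1 in both phases, and GCH1 was lost (adjusted p = 0.377 in S and 0.124 in G2M). Without scaling factors beyond the UMI total, SLC6A2 was lost (adjusted p = 0.112 in G2M).

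Thinned to equal depth, DDC was seen in 20.1% of G1, 9.45% of S and 9.45% of G2M cells of SplitA and in 17.5%, 9.20% and 9.97% of those of SplitB. DBH was seen in 49.3%, 42.5% and 35.0% in SplitA and 48.8%, 41.1% and 31.1% in SplitB. The median UMIs per cell were 5830, 5793 and 7078 in G1, S and G2M of SplitA and 6130, 6091 and 6969 in SplitB, and the median mitochondrial share stayed between 8.43% and 8.89%. The p-values do not measure the spread between the 2 flasks of this single library, and cover no other culture. In S, the log2 fold change of SLC18A1 was -1.32 in SplitA and -0.78 in SplitB, with an SE of 0.149. That of GCH1 was -0.569 and -0.568, with an SE of 0.161, so the SEs did not follow the spread of the flasks. With the flask as a block, 2 residual degrees of freedom remained, and edgeR moderated the dispersion over all genes tested. Values this small therefore do not rest on the 2 flasks alone.

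**Figure D4:**
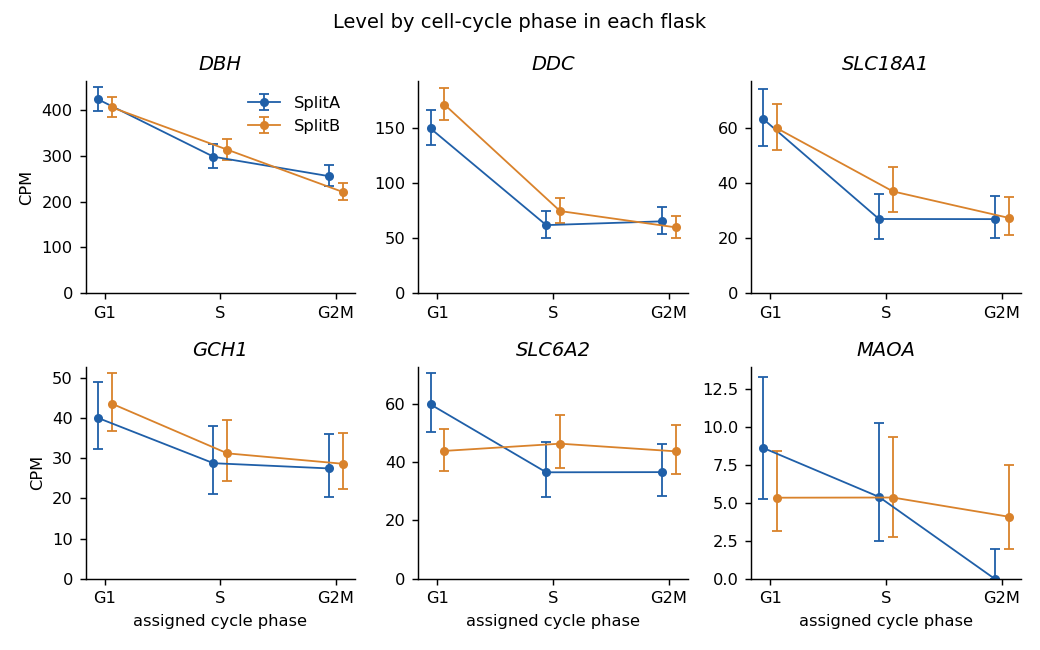
CPM of 6 genes in cells assigned to G1, S and G2M, for SplitA and SplitB, with exact Poisson 95% intervals. DBH, DDC, SLC18A1 and GCH1 are highest in G1 in both flasks, while SLC6A2 is flat in SplitB, at 43.9, 46.3 and 43.7 CPM.

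The 22 other genes of the pathway were read in the same fit. 11 of them were detected in 10% or more of the cells in both flasks, against 29.0% of the 17881 genes with a UMI, and 4 had no UMI. Of the 14 that could be tested, 5 were lower in S and 1 was higher, and in G2M 5 were lower and 0 higher, where 10.5% of all genes tested were higher in S and 15.2% in G2M (edgeR, with 7 lower and 1 higher at an unadjusted p under 0.05 in both contrasts). QDPR fell by 0.42 on the log2 scale in S and by 0.81 in G2M, SLC29A4 by 0.56 and 1.09, CYB561 by 0.63 and 0.66, and PCBD1 by 0.23 and 0.32. AKR1B1 rose in S, with a log2 fold change of 0.32 (adjusted p = 0.00166). Of the adrenergic transcription factors, 4 of 7 tested were lower in S and 3 were lower in G2M. PHOX2A, a homeodomain factor known to act on DBH, fell by 0.43 in S and by 0.61 in G2M.

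Over single cells, the genes most like DBH were CHGA (r of 0.202 in SplitA and 0.238 in SplitB) and CHGB (0.203 and 0.195), the chromogranins of dense-core vesicles, and the mitochondrial gene MT-CYB (0.166 and 0.213). Those most like DDC were DLK1 (0.248 and 0.211), a Notch-related ligand, S100A11 (0.282 and 0.201), a calcium-binding protein, and GNAS (0.228 and 0.175), which encodes a stimulatory G protein subunit. These are Pearson r of log-normalized counts over 898 and 1193 thinned cells, chosen from 5191 genes by the lower of both flasks, and cells of a flask share its library. For SLC6A2 the highest values were below 0.1 (TMEM87A, ICE2 and VGF) and are no finding.

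Because MT-CYB was among the genes most like DBH, the members were also compared by the mitochondrial share of the cell, a comparison chosen after these values had been seen. Levels were here taken per 1000000 UMIs without the 13 mitochondrial protein genes. In the 70 SplitA cells with 15% or more mitochondrial UMIs, DBH was at 739 CPM (612-885), against 358 CPM (342-375) in the other 829 cells. In SplitB it was at 924 CPM (809-1050) in 104 cells and 338 CPM (325-352) in 1091. DDC did not follow, with 94.0 CPM (52.6-155) against 108 CPM (99.1-117) in SplitA and 103 CPM (67.0-150) against 123 CPM (114-131) in SplitB. SLC18A1 in SplitB was at 90.8 CPM (57.6-136) against 46.7 CPM (41.7-52.0), and in SplitA its intervals overlapped. SLC6A2 was at 94.0 CPM (52.6-155) against 49.1 CPM (43.2-55.5) in SplitA and at 82.9 CPM (51.3-127) against 47.9 CPM (43.0-53.3) in SplitB, with overlapping intervals in both flasks. The part of RNA quality in the DBH level was not tested.

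**Figure D5:**
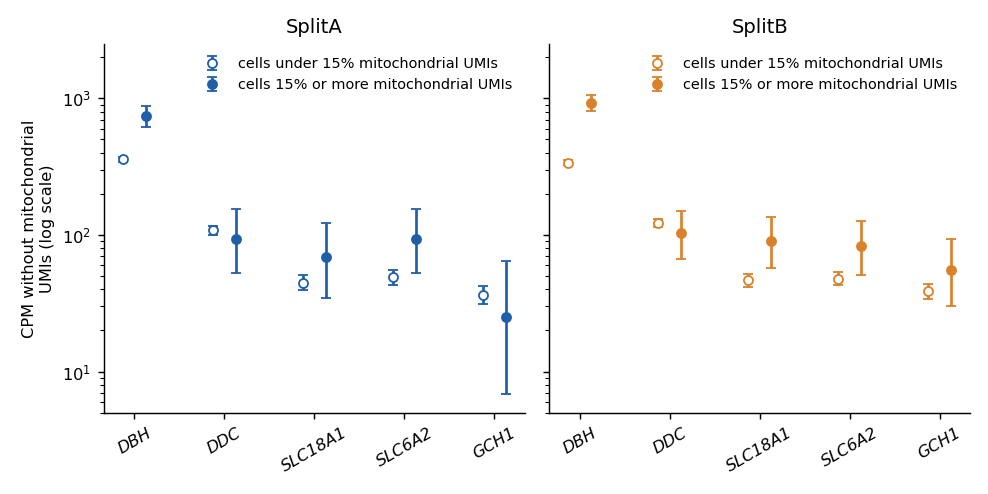
CPM without mitochondrial UMIs (log scale) of the 5 detected genes in cells under 15% (open) and at 15% or more (filled) mitochondrial UMIs, in SplitA and SplitB, with exact Poisson 95% intervals. DBH stands apart in both flasks, at 358 and 739 CPM in SplitA and 338 and 924 CPM in SplitB, and DDC does not.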

How the data were processed

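Untreated SH-SY5Y cells of 2 flasks were measured by CITE-seq with 1 mRNA and 1 hashtag library. The authors aligned reads to GRCh38 (hg38), with STAR 2.7 and Cell Ranger 4.0.0 named in the submitters' processing notes, and deposited the filtered matrix as UMI counts per Ensembl gene without normalization, for 2879 barcodes with the hashtags. The annotation version is not given in the sources used here. The deposited feature list was not used here.

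Flasks were assigned from hashtag counts (a ratio of 3 and the limit of the study's supplementary code), and cells with at least 1000 genes were kept, with no filter on mitochondrial share in the main analysis. Of the barcodes, 1179 fell to SplitA, 1605 to SplitB and 95 to multiplets, and 899 and 1195 were kept, at 1948 to 27205 and 1801 to 27006 UMIs per cell. Multiplets were left out. Scrublet (scanpy 1.11.5) called 29 kept cells of SplitA and 23 of SplitB doublets, which were left out as an alternative only. Counts were summed per flask, and intervals at 95% are exact and cover counting error only. At 2000 UMIs, 1 SplitA and 2 SplitB cells were too shallow to thin. Phases were scored with Seurat 5.3.0 in R 4.3.3, with 42 of 43 S genes and 52 of 54 G2M genes found. The 6 sums per flask and phase, with 2 residual degrees of freedom, were tested with edgeR 4.0.16 (TMM factors, filterByExpr, flask as a block, adjusted p threshold of 0.05). Other values used Python 3.11.15, numpy 2.4.6, scipy 1.17.1 and pandas 2.3.3, and plots matplotlib 3.10.9. Gene positions and transcript lengths are of GENCODE release 44. Scripts for the phase test and for likeness were checked on simulated data.

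The genes named are the 9 members, those of 22 other pathway genes detected in 10% or more of the cells of a flask, and the 3 genes most correlated over cells with each member seen in at least 20% of cells of both flasks, beside lists of adrenergic, mesenchymal, other transmitter and other tissue genes. PNMT, MAOB, CHAT, SLC18A3, DBH-AS1, DDC-AS1, SFTPC, TWIST1 and VIM were named after their values were seen. Values of some genes on these lists are not reported here. The members and lists were chosen with earlier results of these data known. Alternatives numbered 77 planned and 2 added after seeing the data, and concerned hashtag limits, gene minimum, filters, doublets, depth, normalization, test, cycle gene list, the block and leaving out each flask. Of 4 serotonin and histamine genes, 3 had no UMI and the highest had 0.683 CPM, and of 6 glutamate and GABA genes none passed 0.372 CPM.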

Additional observations from a re-analysis of the deposited data

Results flagged for a closer look

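Barcodes outside the comparisons also held UMIs of 7 of these genes, above the 3 counts that a count of 0 is taken to allow, while SLC18A2 stayed under that limit and SLC6A3 had no UMI there. They are 280 SplitA and 410 SplitB cells with under 1000 genes, whose median mitochondrial share was 32.6% and 36.7%, and 73 multiplets. In the cells with under 1000 genes DBH was at 750 CPM in SplitA (669-838) and 654 CPM in SplitB (589-724), against 335 CPM and 325 CPM in the kept cells. Without mitochondrial UMIs this was 1101 CPM (982-1230) and 1010 CPM (910-1118), against 369 CPM (353-386) and 359 CPM (345-373). SLC6A2 was at 72.3 CPM (48.8-103) and 66.4 CPM (47.0-91.2), SLC18A1 at 41.0 CPM and 59.4 CPM, DDC at 89.2 CPM and 75.2 CPM, and GCH1 at 24.1 CPM and 19.2 CPM. TH was at 8.74 CPM in SplitB (2.84-20.4) and had no UMI in SplitA, where 3 counts are 7.23 CPM (exact Poisson upper limit of 8.90 CPM). Without mitochondrial UMIs, SLC6A2 was at 106 CPM (71.6-152) and 103 CPM (72.6-141), against 50.4 CPM (44.6-56.9) and 49.1 CPM (44.2-54.5) in the kept cells, so that its intervals too were apart in both flasks. SLC18A1 was at 60.2 CPM (35.1-96.3) and 91.8 CPM (63.6-128), against 45.6 CPM (40.0-51.7) and 48.2 CPM (43.3-53.5), with intervals apart in SplitB, as were those of TH in SplitB (4.38-31.5 CPM against 0.563-2.34 CPM). DDC was at 131 CPM (92.2-181) and 116 CPM (84.0-156), against 107 CPM (98.8-117) and 122 CPM (114-130), with overlapping intervals.

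In the multiplets DBH was at 322 CPM, DDC at 98.6 CPM, SLC6A2 at 53.6 CPM, SLC18A1 at 39.8 CPM, GCH1 at 31.2 CPM and MAOA at 8.65 CPM (2.81-20.2). No cause of these values was tested.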

How the results depend on the processing

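With cells thinned to 2000 UMIs, 2 members in place of 5 were detected in at least 10% of cells of both flasks. Without thinning, 3 members were detected at a limit of 20% of cells. Cells with both TH and DBH were 0.0419% at 2000 UMIs, 0.409% at 4000 UMIs and 0.766% without thinning. The members called in G2M were 6 with edgeR, 3 with DESeq2 and 3 after thinning to 2000 UMIs, where 5 were tested. SLC6A2 in S went from -0.35 to 0.0427 on the log2 scale after thinning, and was past the threshold with at least 500 genes, with multiplets added and with the updated cycle gene list (adjusted p of 0.011 to 0.034). SLC6A2 in G2M was also lost with a hashtag limit of 100 (adjusted p = 0.0898), and MAOA in G2M with DESeq2 (adjusted p = 0.514). GCH1 was lost after thinning too (adjusted p = 0.308 in S and 0.226 in G2M). The cause of these changes was not tested, beyond the fewer UMIs left by thinning. DDC, DBH and SLC18A1 stayed called in both phases under every alternative with a test, at log2 fold changes of -1.37 to -1.18 in S and -1.63 to -1.15 in G2M for DDC, per-flask values included.

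Over all genes, edgeR called 1109 higher and 991 lower in S and 1594 and 1589 in G2M, DESeq2 392 and 283 in S and 509 and 551 in G2M, and edgeR on thinned counts 397 and 393 in S and 601 and 583 in G2M. Without scaling factors beyond the UMI total the median of all genes moved from 0.032 to 0.15 in G2M and the calls became 2212 higher and 1075 lower, and 1455 and 671 in S. Without the flask as a replicate block, the members called were 4 in S and 6 in G2M, and no call changed. With either flask left out, 5 members were detected, and the thinned cells with TH and DBH ranged from 0% to 0.0838%. The phase test could not be made with 1 flask, since no residual degrees of freedom remain, nor could the difference between flasks. TH, SLC18A2 and SLC6A3 are limited by depth, with at most 9 UMIs in a flask.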
